A study of Mus musculus with 8 samples.

Results

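Integrin and cadherin genes were taken as every gene whose symbol starts with Itga or Itgb and a further digit or letter, or with Cdh and a digit, among probe sets that carry 1 gene symbol. This gave 50 genes (29 Itg symbols and 21 Cdh symbols) of 18193 genes on the arrays, with 104 probe sets. The Itg symbols cover 25 integrin subunits and 4 genes that are not subunits: Itgb1bp1, Itgb1bp2, Itgb3bp and Itgbl1. Each gene was read from its brightest probe set, on array type A where it had one there (43 genes) and otherwise on type B (7 genes).

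The samples were total RNA of mouse primary myotubes, the multinucleated cells formed by fusion of muscle precursors, and each of 4 RNAs was hybridised to 1 array of each type. One RNA is labelled truncated Egr3 and one wildtype, both under a treatment of the type grow. RNA275 carries only an acclimatization treatment and RNA276 no condition, so neither was placed in a group and their values are given singly. Egr3 is a zinc-finger transcription factor. The labels do not say how the truncated form was made or introduced, whether wildtype refers to Egr3 or to the cells, whether cultures or animals were pooled, or the age of the animals. Each label has 1 RNA and hence no replicate, so the differences are descriptions of single RNAs and carry no p-value.

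Integrins are receptors made of 1 alpha and 1 beta subunit that hold the cell to its matrix and pass tension and signals inward through talin, kindlin and vinculin. In skeletal muscle the laminin receptor built from the products of Itga7 and Itgb1 links the fibre to its basement membrane, beside the dystroglycan complex. Classical cadherins join neighbouring cells by binding their own kind across the gap, and catenins tie them to actin. M-cadherin (Cdh15) and N-cadherin (Cdh2) are the cadherins best known from myoblasts, where they act in cell alignment and fusion.

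All 12 myotube markers on the list, Myog, Ckm and Acta1 among them, were above the signal floor in all 4 RNAs. Their log2 differences, truncated Egr3 minus wildtype, had a median of -0.18, with 2 above 0 and 10 below. The widest range over the 4 RNAs was that of Neb, which read 3305 in the wildtype RNA and 377 in RNA276. The floor was 67.6 on type A and 112.6 on type B, and values under it were treated as equal. Of 10 leukocyte and macrophage markers on the arrays, 8 were at the floor in all 4 RNAs, Ptprc among them. The other 2, Csf1r (89.9 to 116) and Laptm5 (74.4 to 104), were above it in all 4 RNAs. Of 8 endothelial markers, 7 were at the floor in all 4 RNAs, and Kdr was above it only in the wildtype RNA, at 70.8. Of 8 fibroblast markers, 5 were above the floor in every RNA, with a median log2 difference of -0.19. Dcn among them read 317 in the truncated-Egr3 RNA and 157 in the wildtype RNA (log2 difference 1.02, or 0.99 with loess). Col3a1 had a difference of 0.08, while Col1a2 (-0.19), Col1a1 (-0.33) and Pdgfrb (-0.45) were below 0. For Egr3 itself, the type A probe set gave 829.9 in the truncated-Egr3 RNA and 769.0 in the wildtype RNA, and 1454 in RNA275 and 2627 in RNA276. The type B probe set gave 1039 and 1419.7 in the truncated-Egr3 and wildtype RNAs, a difference of the opposite sign, and 1203 and 771 in RNA275 and RNA276, so that RNA276 was the highest of the 4 on type A and the lowest on type B.

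Of the 50 genes, 20 were above the floor in the truncated-Egr3 or the wildtype RNA (for all genes the share above it was 56.7%), and 30 were at the floor in all 4 RNAs. None of the 20 reached 2-fold in either direction, while of 10307 measured genes 0.534% were higher in the truncated-Egr3 RNA by that threshold and 1.13% lower. At 1.5-fold, 2 of the 20 were lower (Itga6 and Itgb8), against 4.59% of all measured genes, and none was higher, against 4.70%. The median log2 difference, truncated Egr3 minus wildtype, was -0.09 over the 20 genes and 0.00 over all measured genes. Of the 20 differences, 7 were above 0 and 13 below, while 50.1% of all measured genes were above 0. Of the 13, Itga1, Itgb6 and Itgb8 were above the floor in the wildtype RNA alone of the labelled pair. In the wildtype RNA, Itga1, Itga3, Itga9, Itgb1bp1, Itgb6 and Itgb8 read less than 2-fold above the floor. A call of 2-fold lower was therefore not possible for these genes. With the median over probe sets, or the brightest probe set on either type, 26 of the 50 genes were measured. Of these 26, 12 were above 0 and 14 below, with medians of -0.02 and -0.03. An error could be had for the technical part alone. From 100 probe sets that both array types carry, the SD of a single log2 difference was 0.179, and 15 of the 20 differences were smaller than 2 such SDs (0.358), as were those of 73.9% of all measured genes. One of the 15, Itga1, is a bound. On average that difference was 0.139 lower for those probe sets when read on type A.

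**Figure D1:**
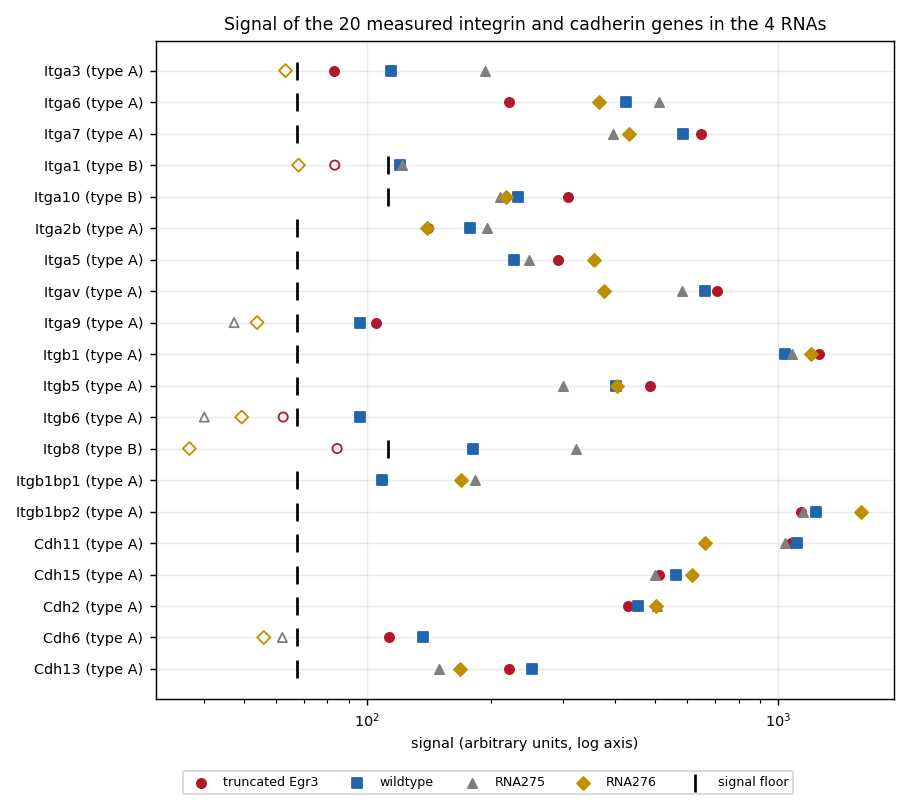
Signal of each of the 20 measured genes in the 4 RNAs (horizontal log axis, arbitrary units), 1 point per RNA, with the floor of the array type as a vertical bar and open symbols for values under it. Itga6 reads 221 in the truncated-Egr3 RNA and between 367 and 511 in the other RNAs, while the 4 values of Itgb1, Cdh15 and Cdh2 lie close together.

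The largest difference that the floor did not limit was that of a laminin receptor subunit. Itga6, whose product pairs with beta subunits to bind laminin and is found on muscle precursors, read 221 in the truncated-Egr3 RNA and 425 in the wildtype RNA, and 511 in RNA275 and 367 in RNA276. The truncated-Egr3 RNA was thus the lowest of the 4, at 1.93-fold below the wildtype RNA (log2 difference -0.95). Its other probe set, also on type A, read 153 and 293 in the truncated-Egr3 and wildtype RNAs, and 347 and 245 in RNA275 and RNA276, with a log2 difference of -0.94. Both probe sets put the 4 RNAs in the same order. Over all measured genes, 133 (1.29%) had a difference as far below 0 as that of Itga6.

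The other laminin-binding alpha subunits went different ways. Itga3 read 82.8 in the truncated-Egr3 RNA and 114 in the wildtype RNA, and 193 in RNA275, while RNA276 was under the floor at 63.2. Its log2 difference was -0.47, and the truncated-Egr3 value lay close to the floor. The other measured Itga3 probe set read 49.2 in the truncated-Egr3 RNA and 73.6 in the wildtype RNA, and 64.4 in RNA275 and 76.6 in RNA276. By this probe set Itga3 was highest in RNA276, and RNA275 was under the floor. Its difference of -0.12 is a bound, with the truncated-Egr3 array under the floor. Itga7, the alpha subunit of mature muscle fibres, read 649.6 in the truncated-Egr3 RNA and 585 in the wildtype RNA, against 396 in RNA275 and 433 in RNA276. Its difference of 0.15 was within the technical SD, and the 2 labelled RNAs were both above RNA275 and RNA276.

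Itgb8, whose product pairs with the Itgav product and takes part in activating latent TGF-beta, read 84.4 in the truncated-Egr3 RNA and 181 in the wildtype RNA, and 321 in RNA275 and 36.9 in RNA276. It was above the floor only in the wildtype RNA and RNA275. Because the truncated-Egr3 array was under the floor, the log2 difference of -0.68 is a bound on its size. With the lower floor, where both arrays could be read, it was -1.10, and with the higher floor -0.21. Ngfr and Krt18, taken from the marker lists of other cell types, were likewise above the floor only in the wildtype RNA and RNA275. The same held for Itga1, for Mcam and Lims2 of the adhesion lists, and for the type B probe set of Itgal. How many of all genes show this pattern was not counted. Ngfr, listed as a Schwann cell marker, read 15.5 and 128 in the truncated-Egr3 and wildtype RNAs, and 353 and 24.9 in RNA275 and RNA276. The summed signal of the 4 Schwann cell markers on the arrays was 143 and 240 in the truncated-Egr3 and wildtype RNAs, and 506 and 152 in RNA275 and RNA276. Such sums, here and below, were taken without the floor. Mbp and S100b were at the floor in all 4 RNAs, and Sox10 read between 85.2 and 118, with a log2 difference of -0.02. Between the truncated-Egr3 and wildtype RNAs the sum thus followed Ngfr and no other marker of its list. Krt18, an epithelial marker, read 14.6 and 69.5 in the truncated-Egr3 and wildtype RNAs, and 238 and 25.9 in RNA275 and RNA276. Its wildtype value lay close to the floor, and its log2 difference of -0.04 is a bound. Krt8, another epithelial marker, was above the floor in all 4 RNAs and did not follow Krt18. Krt8 read 104 and 99.9 in the truncated-Egr3 and wildtype RNAs, and 124 and 102 in RNA275 and RNA276 (log2 difference 0.06). The 7 epithelial markers summed to 244 and 278 in the truncated-Egr3 and wildtype RNAs, and to 482 and 229 in RNA275 and RNA276. Between the truncated-Egr3 and wildtype RNAs, Krt18 alone set the direction of that sum. That direction rests on a Krt18 reading under the floor, since its floored log2 difference was only -0.04. Of the 7 markers, Cdh1 was at the floor throughout. Epcam was at the floor by its chosen probe set but had a log2 difference of 0.69 by its type B probe set. All 3 measured smooth muscle and pericyte markers of the 6 on the arrays also had differences below 0, at -0.83 for Tagln, -0.46 for Cspg4 and -0.27 for Acta2. Their list summed to 4136 and 5631 in the truncated-Egr3 and wildtype RNAs, and to 4726 and 4950 in RNA275 and RNA276, with Cnn1, Myh11 and Rgs5 at the floor in all 4. Whether cells of these types were present, and their part in the values of Itgb8, Itga3 and Itga6, was not tested. In bulk RNA, fewer cells of a type and less RNA per cell cannot be told apart.

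Since the series concerns genes regulated by Egr3, the 250 bases before the transcription start were searched for the Egr consensus GCGNGGGCG on both strands, in RefSeq promoters of the GRCm38.p6 build. A promoter was found for 32 of the 50 genes, 14 of them measured, and Itga6 was not among them. The motif lay before 1 of several starts of Cdh7, a gene at the floor in all 4 RNAs, and in none of the promoters of the 14 measured genes, against 5.33% of all genes with a promoter. The upstream stretches of Itga3 and Itgb8 are shown from 5′ to 3′ in the direction of transcription. By their chosen probe sets, both genes were highest in RNA275 and lower in the truncated-Egr3 than in the wildtype RNA. Capitals mark E-boxes (CANNTG, which reads alike on both strands and is the type of site bound by myogenic bHLH factors). An E-box was present before 69.3% of all genes and 23 of the 32. A match to these letters is a description of the sequence and not a binding site.
Itga3, chr11:95076715-95076964, minus strand: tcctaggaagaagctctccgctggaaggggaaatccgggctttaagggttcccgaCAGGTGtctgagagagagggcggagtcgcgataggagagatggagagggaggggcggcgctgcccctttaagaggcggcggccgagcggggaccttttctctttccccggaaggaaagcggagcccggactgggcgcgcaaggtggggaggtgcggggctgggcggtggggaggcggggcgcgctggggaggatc
Itgb8, chr12:119238277-119238526, minus strand: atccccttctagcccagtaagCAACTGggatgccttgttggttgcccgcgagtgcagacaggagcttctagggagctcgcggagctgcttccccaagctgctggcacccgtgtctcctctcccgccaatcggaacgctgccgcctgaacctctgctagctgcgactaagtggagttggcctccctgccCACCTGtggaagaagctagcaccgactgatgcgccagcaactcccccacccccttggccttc
The Itga3 stretch belongs to the more upstream of its starts in the table, held 1 E-box and was 67.6% G and C. That of Itgb8 held 2 E-boxes and was 62.4% G and C, where the median of all promoters was 52.4%.

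None of the measured alpha subunits that bind collagen, or ligands with an RGD sequence such as fibronectin and vitronectin, reached 1.5-fold. Itga10, a collagen receptor subunit, read 308 in the truncated-Egr3 RNA and 232 in the wildtype RNA, and 210.2 and 218 in RNA275 and RNA276. It had the highest value among the 20 differences, 0.41, with the truncated-Egr3 RNA above the other RNAs, which lay close together. Itga1, also a collagen receptor subunit, read 83.3 and 120.0 in the truncated-Egr3 and wildtype RNAs, and 121 and 68.0 in RNA275 and RNA276, so that the labelled pair and the unlabelled pair each had 1 value under the floor of 112.6. The fibronectin receptor subunit Itga5 read 291 in the truncated-Egr3 RNA and 228 in the wildtype RNA, and 247 in RNA275 and 356 in RNA276. That gave a difference of 0.35 by a probe set of a type that can match several transcripts, while the other probe sets gave 0.07 and -0.36, the second a bound with the truncated-Egr3 array under the floor. The sign of Itga5 was therefore not shared by its probe sets. Itgav, the alpha subunit of the vitronectin receptors, read 709.9 in the truncated-Egr3 RNA and 664 in the wildtype RNA, and 584 in RNA275 and 377 in RNA276. Its difference of 0.10 had the opposite sign by the dimmer probe set (-0.19), and both probe sets were lowest in RNA276. Itga2b, known from platelets, read 141 and 178 in the truncated-Egr3 and wildtype RNAs, and 196 and 139.6 in RNA275 and RNA276 (difference -0.34). Itga9, which binds tenascin and VCAM1, read 105 and 95.9 in the truncated-Egr3 and wildtype RNAs and was under the floor in RNA275 and RNA276, at 47.4 and 53.9.

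Itgb1, the common beta partner of most of these alpha subunits, varied little. It read 1254 in the truncated-Egr3 RNA and 1038 in the wildtype RNA, and 1079.9 in RNA275 and 1199 in RNA276. The range over the 4 RNAs was 0.27 in log2, and the other probe sets gave differences of 0.18 and -0.09. Itgb5, a vitronectin receptor subunit, read 487 in the truncated-Egr3 RNA and 403 in the wildtype RNA, and 299.9 in RNA275 and 405 in RNA276. Its 4 probe sets gave differences of 0.27, 0.22, 0.06 and -0.17, and each was lowest in RNA275. Itgb6, known from epithelia, was above the floor only in the wildtype RNA, at 96.1, against 62.4 in the truncated-Egr3 RNA, 40.1 in RNA275 and 49.5 in RNA276. The difference of -0.51 is a bound, and its second probe set also had only the wildtype RNA above the floor, at 84.3.

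The genes of both proteins that bind the Itgb1 tail, Itgb1bp2 and Itgb1bp1, were above the floor in all 4 RNAs. Itgb1bp2, or melusin, a muscle protein, read 1133 in the truncated-Egr3 RNA and 1232 in the wildtype RNA, and 1150.3 in RNA275 and 1586 in RNA276 (difference -0.12). Itgb1bp1, which competes with talin for the same tail, read 108 in the truncated-Egr3 RNA and 109 in the wildtype RNA, and 183 in RNA275 and 169 in RNA276. The labelled RNAs were alike in Itgb1bp1, and RNA275 and RNA276 lay above both.

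**Figure D2:**
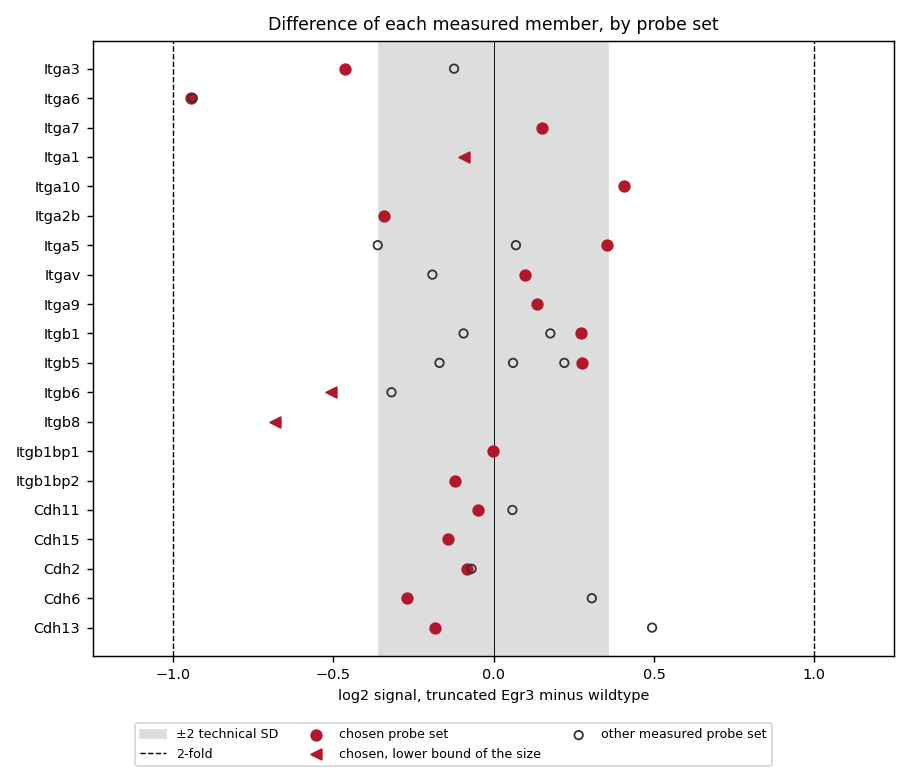
Log2 signal in truncated Egr3 minus wildtype for the 20 measured genes (horizontal axis), with the chosen probe set in red, a left-pointing triangle where the size is a lower bound, other measured probe sets as open circles (bounds included) and a grey band at 2 technical SDs either side of 0. No chosen or other probe set passes the dashed lines at 2-fold, both Itga6 probe sets lie near -0.95, and the open circles of Cdh6 and Cdh13 fall on the opposite side of 0 from the red points.

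The 5 measured cadherins had small differences below 0, between -0.27 and -0.05, though Cdh11 turned to 0.01 when the arrays were given equal medians. Cdh15 read 512 in the truncated-Egr3 RNA and 565 in the wildtype RNA, and 500.4 in RNA275 and 617 in RNA276. Cdh2 read 429 and 455 in the truncated-Egr3 and wildtype RNAs, and 506 and 503 in RNA275 and RNA276, with -0.08 by this probe set and -0.07 by the other. The ranges over the 4 RNAs, 0.30 for Cdh15 and 0.24 for Cdh2 in log2, were below the median range of 0.56 over all measured genes. Cdh11, a cadherin of mesenchymal cells, read 1073 in the truncated-Egr3 RNA and 1110.1 in the wildtype RNA, and 1038 in RNA275 and 662 in RNA276. RNA276 was also the lowest by its type B probe set, at 271, where the other 3 RNAs read 432 to 466 and the difference was 0.06.

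Cdh6 and Cdh13 depended on the probe set. Cdh6, a classical cadherin of embryonic tissues, read 113 in the truncated-Egr3 RNA and 136 in the wildtype RNA on type A and was under the floor in RNA275 and RNA276, at 62.1 and 56.0. On type B it read 228 and 184 in the truncated-Egr3 and wildtype RNAs, and 179 and 152 in RNA275 and RNA276, so the differences were -0.27 and 0.31. Cdh13, or T-cadherin, which is held to the membrane by a lipid anchor, read 222 in the truncated-Egr3 RNA and 252 in the wildtype RNA, and 149 in RNA275 and 168 in RNA276 on type A. By the type B probe set it read 1348 and 957 in the truncated-Egr3 and wildtype RNAs, and 1143 and 1456 in RNA275 and RNA276, so the differences were -0.18 and 0.49. The wildtype RNA was the highest of the 4 by the type A probe set of Cdh13 and the lowest by that on type B. Cadherins as a group were thus below 0 only by the chosen probe sets. Across measured genes of the list, 8 of 15 other measured probe sets had the sign of the chosen one. Within pairs of measured probe sets of 1 gene, the root mean square difference was 0.340 over 22 pairs of these genes and 0.397 over 11818 pairs of all genes.

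**Figure D3:**
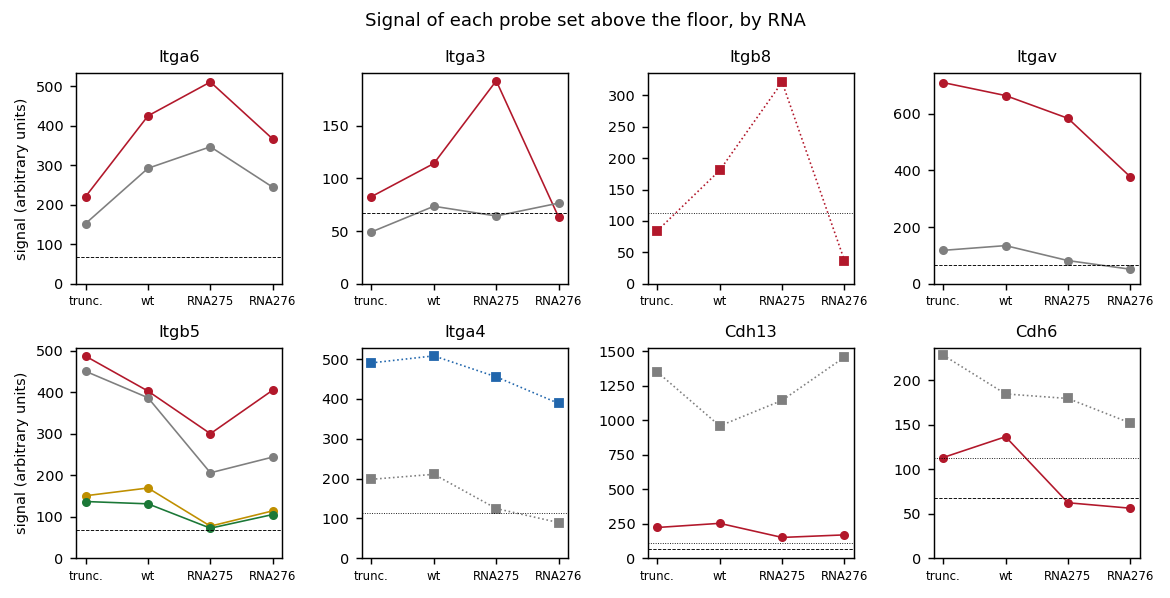
Signal (vertical axis, arbitrary units, from 0) of every probe set of 8 genes that was above the floor in at least 1 RNA, with the chosen probe set in red, type A as circles with solid lines and type B as squares with dotted lines; thin horizontal lines are the floors, and lines only join the values of 1 probe set. The Itga6 probe sets run in parallel and the 4 Itgb5 probe sets are all lowest in RNA275, while the Cdh13 probe sets do not follow each other.

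The 30 genes at the floor read between 0.741 and 72.6 by their chosen probe sets. They were the integrin subunits Itga2, Itga4, Itga8, Itgae, Itgal, Itgam, Itgax, Itgb2, Itgb2l, Itgb3, Itgb4 and Itgb7, the genes Itgb3bp and Itgbl1, and the cadherins Cdh1, Cdh3, Cdh4, Cdh5, Cdh7, Cdh8, Cdh9, Cdh10, Cdh16, Cdh17, Cdh18, Cdh19, Cdh20, Cdh22, Cdh23 and Cdh26. Itgb2 and its partners Itgal, Itgam and Itgax are integrins of leukocytes, Cdh1 is the cadherin of epithelia and Cdh5 that of endothelium. For 7 of the 30 a probe set on type B was above the floor in at least 1 RNA. Itga4, which binds fibronectin and VCAM1 and is carried by muscle precursors, read 491 in the truncated-Egr3 RNA and 508 in the wildtype RNA, and 456 in RNA275 and 389 in RNA276, and its other type B probe set was likewise lowest in RNA276, at 89.2. Itga4 could therefore be read in these myotubes although its type A probe set could not. Itgb3, a vitronectin receptor subunit, was above the floor of type B only in the truncated-Egr3 RNA, at 198, against 84.7 in the wildtype RNA, 107 in RNA275 and 75.9 in RNA276. The difference of 0.82 is a bound. Itgal read 87.5 and 122 in the truncated-Egr3 and wildtype RNAs and 243 and 105 in RNA275 and RNA276 on type B. Itga8, Itgb2l and Cdh10 had differences between -0.12 and 0.10 on type B, and Cdh4 was above the floor only in RNA276, at 117.

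Over the 4 RNAs together, 14 of the 50 genes were above the floor in every RNA. The widest ranges in log2 were those of Itga3 and Itgb8 (1.51 each, both bounds), Itga6 (1.21) and Cdh6 (1.01, a bound). The median range of the 20 measured genes was 0.67, against 0.56 over all measured genes. RNA275 was the highest RNA for 7 of the 20, the truncated-Egr3 RNA for 6, the wildtype RNA for 4 and RNA276 for 3.

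Genes that work with integrins and cadherins were read from lists by role. Among 5 measured catenins none was 2-fold apart, and the median was -0.04, or 0.01 to 0.03 under the 3 other scalings. Ctnnd1, or p120-catenin, which holds cadherins at the surface, had the largest difference at 0.96 (234 in truncated Egr3, 120.3 in wildtype), but 0.47 and -0.40 by its other probe sets; with equal medians its chosen probe set reached 1.02. Jup, plakoglobin, had one of -0.30. Among 17 measured focal adhesion adaptors none was 2-fold apart, and the median was -0.10, with 5 above 0 and 12 below. With equal medians the median was -0.00 and 7 were above 0. Pxn, the scaffold paxillin, had a difference of -0.75 (574 in truncated Egr3, 967 in wildtype) and of -0.38 and 0.48 by its other probe sets. Lims1, which binds integrin-linked kinase, had one of 0.55, with 0.04, -0.17 and -0.07 by the others.

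Among 9 measured tetraspanins and other membrane proteins, most of which associate with integrins, none was 2-fold apart. Their median was -0.06, and 0.00 with quantile normalization and with equal medians. Cd44, the hyaluronan receptor, read 449.8 in the truncated-Egr3 RNA and 638 in the wildtype RNA, and 917 in RNA275 and 958 in RNA276 (difference -0.50, and -0.91 and -0.26 by the other probe sets). Cd82 had a difference of -0.26, and -0.55 by its other probe set. Cd151, the tetraspanin that binds laminin receptors such as that of Itga6, was singled out after its values were seen. Its chosen probe set gave -0.21 and the 4 others -0.16, -0.42, -0.49 and -0.57. Of 6 measured integrin ligands, Tnc, tenascin-C, had a difference of -0.51 and Thbs1, thrombospondin, one of 0.45, with a list median of 0.07. Their other probe sets gave -0.18 and -0.06. The 9 measured protocadherins and related genes had a median of 0.20 with 7 above 0, led by Fat4 (0.48) and Fat1 (0.30), both large cadherins of the Fat family. The list median was 0.08 with loess and 0.33 with equal medians. Fat1 fell to 0.15 with quantile normalization and 0.08 with loess, where Fat4 gave 0.50 and 0.49. Equal medians moved the median of all measured type B genes to 0.17, against 0.03 in the deposited scale, and both Fat genes were read on type B.

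The gene of the adhesion lists that passed 2-fold was Mymx, myomixer, a small membrane protein needed for myoblast fusion. It read 1446 in the truncated-Egr3 RNA and 3082 in the wildtype RNA, and 3878 in RNA275 and 2545 in RNA276. The truncated-Egr3 RNA was the lowest of the 4, by 2.13-fold against the wildtype RNA (log2 difference -1.09), and the order of the 4 RNAs was that of Itga6. The share of all genes with that order was not counted. With equal medians the log2 difference of Mymx was -0.94, under 2-fold. Mymx was 1 of 14 measured surface adhesion and fusion genes, whose median was -0.04, or 0.03 with equal medians. Mcam, a surface protein of the immunoglobulin family, had the next largest difference, read 45.5 and 119 in the truncated-Egr3 and wildtype RNAs and 155 and 46.3 in RNA275 and RNA276, and its log2 difference of -0.82 is a bound that was -1.39 with the lower floor and -0.23 with the higher. Mymk, myomaker, the partner of Mymx in fusion, was named after its values were seen and read 1596 and 1666 in the truncated-Egr3 and wildtype RNAs, and 1935 and 2109 in RNA275 and RNA276.

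**Figure D4:**
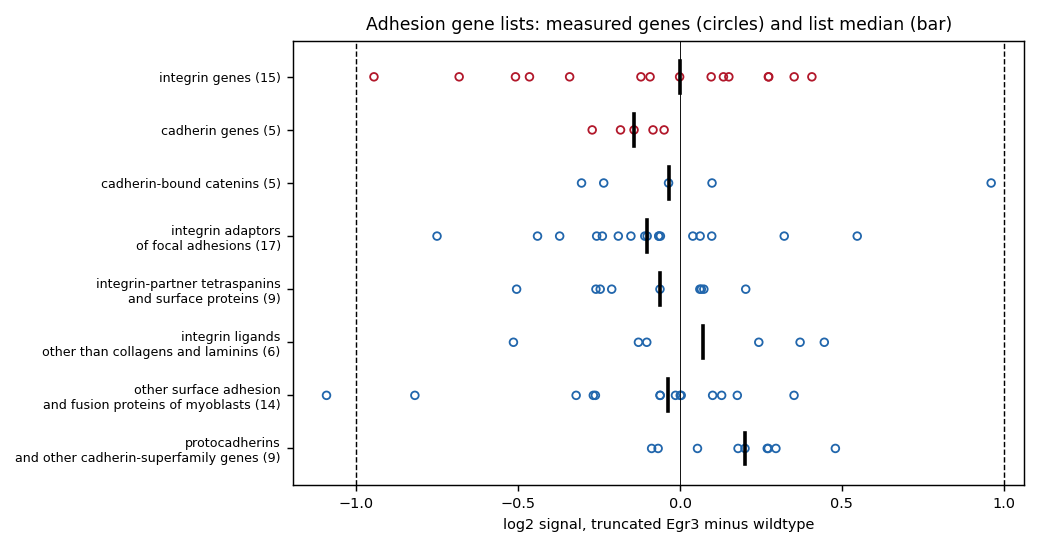
Log2 signal in truncated Egr3 minus wildtype (horizontal axis) of each measured gene of the integrins, the cadherins and 6 lists of adhesion genes (number of measured genes in brackets), with a bar at the list median and dashed lines at 2-fold. The list medians lie between -0.14 and 0.20, and 1 gene, Mymx at -1.09 (-0.94 with equal medians), passes 2-fold.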

How the data were processed

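The authors deposited 1 table per array type, with 1 linear intensity per probe set and array. Which software and normalization they used is not stated by any label or header. The deposited intensity values had a mean of 150.0 on each of the 8 arrays once 2% was trimmed from each end, and that scale was kept. Array types of 1 RNA were not treated as replicates. The number of arrays limits the precision.

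Gene symbols came from the platform tables and were matched by gene number to RefSeq (GRCm38.p6). Probe sets with 1 symbol numbered 20380 on type A and 14661 on type B. Signals were floored at the 50th percentile (type A) or 60th percentile (type B) of the truncated-Egr3 and wildtype arrays, then log2 transformed. A gene was measured if either array exceeded the floor, and where 1 array did not, the fold is a lower bound. Members and lists were chosen with earlier results of these data known. Named were all members, and from each adhesion list those 2-fold apart or the 2 largest differences. Cd151, Lims2, Mcam, Mymk and the markers given beside a result were added after their values were seen. The counting was tested on simulated data. Alternatives covered scaling, floor, fold threshold and probe set choice. Tables were handled in Python 3.11.15 with pandas 2.3.3 and numpy 2.4.6, loess came from statsmodels 0.14.6, trimmed means from scipy 1.17.1 and plots from matplotlib 3.10.9.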

Additional observations from a re-analysis of the deposited data

How the results depend on the processing

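No paired analysis was possible because each label has 1 RNA. The count of integrin and cadherin genes at least 2-fold apart stayed at 0 higher and 0 lower with quantile normalization, equal medians, loess, the higher floor, the 3-fold threshold, the median over probe sets, without probe sets ending in _s_at or _x_at, and with the brightest probe set on either array type, an alternative chosen after seeing the data. With the lower floor 1 of 24 was lower (Itgb8; 1.53% of all genes), and with 1.5-fold 2 of 20 were lower (4.59%). Without a floor, where all 50 are read down to a signal of 1, 3 were higher (3.33% of all genes) and 8 lower (6.65%), and the median was -0.27 (-0.05 over all genes). Over all genes, 55 were higher and 116 lower, so 32.2% of these were higher. With equal medians 87 were higher and 93 lower (48.3% higher), with the lower floor 84 and 185, with the higher floor 39 and 76, without a floor 603 and 1206, at 1.5-fold 484 and 473, and at 3-fold 8 and 38. Of 20 measured genes, 15 kept their sign in every alternative run; Cdh6, Cdh11, Cdh13, Itgav and Itgb1bp1 did not. Itga6 lay between -0.99 and -0.88. Cdh13 read 0.49 and Cdh6 0.31 with the brightest probe set on either type. Dim genes such as Itgb8, Itga3 and Itga1 are limited by the floor, and the cause of the other changes was not tested.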
